A study of Mus musculus with 20 samples.

Results

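The genes that set the sodium and chloride content of uterine luminal fluid were followed in whole uterus on the evening before implantation. They were 10 genes, taken by exact match of the gene symbol, of 45777 genes listed. Scnn1a, Scnn1b and Scnn1g encode the 3 subunits of the epithelial sodium channel ENaC. Cftr encodes the cAMP-gated chloride and bicarbonate channel, Slc26a4 (pendrin) exchanges chloride for bicarbonate, Slc12a2 (NKCC1) loads epithelial and muscle cells with chloride, and Ano1 (TMEM16A) is a calcium-activated chloride channel. Sgk1 encodes a kinase, Nedd4l a ubiquitin ligase and Prss8 (prostasin) a membrane-anchored protease, all of which act on ENaC. Of the 10 genes, 8 were above 0 TPM in all 20 libraries and entered the test across all genes. Scnn1g and Slc26a4 were each listed at 0 in 1 library and were compared by exact permutation tests.

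ENaC lets sodium, and with it water, leave the lumen across the epithelium, while CFTR lets chloride and bicarbonate, and with them water, enter it. Before attachment the mouse uterine lumen loses fluid and closes around the blastocyst. SGK1 phosphorylates NEDD4L, which then no longer marks ENaC for removal from the membrane, and prostasin promotes cleavage that opens the channel. The Sgk1 gene is a classical target of the glucocorticoid, mineralocorticoid and progesterone receptors, and RU486 (mifepristone) is an antagonist of the progesterone and glucocorticoid receptors.

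RNA came from 1 uterine horn of each of 20 wild-type B6D2F1 mice, 8 to 12 weeks old, with 5 mice in each of 4 groups, collected at 18:00 on day 3.5 after mating (the plug morning being day 0.5). Control mice were pregnant and untreated. IF mice, the implantation failure model, received 3 mg/kg RU486 under the skin at 9:00 on day 3.5 and nothing into the uterus. PBMC and PBMC-hCG mice received the same RU486, after an injection on day 1.5 of 50000 peripheral blood mononuclear cells into each uterine horn. The cells were those of non-pregnant mice, cultured for 24 h without hCG (PBMC) or with 5 IU/mL human chorionic gonadotropin (PBMC-hCG). Since IF mice had no injection, the injection and the cells cannot be told apart in comparisons with the IF group, and in bulk tissue fewer cells of a type and less RNA per cell cannot be told apart. Of the 6 comparisons, 3 use the IF libraries and 3 use the control libraries.

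The values were TPM, abundances corrected for transcript length and scaled to a fixed total, so that levels of different genes can be set side by side. Library totals lay between 999988.5 and 999999.4 TPM, as the unit fixes them, and the depth of sequencing is unknown. Each library had 22702 to 24097 genes above 0 TPM. Markers of epithelium, glands, stroma, myometrium and endothelium were above 0 in all 20 libraries, as whole uterus would have. Control replicate 2 stood apart. Its 7 gland markers summed to 23950 TPM, where the other 19 libraries had 1274 to 12240, and its 5 adipose markers summed to 584 TPM, where no other library was above 134.5.

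Across all 20 mice the members fell into 3 ranges of level. Ano1 (median 58.0 TPM), Slc12a2 (48.0 TPM), Sgk1 (46.8 TPM), Prss8 (40.7 TPM) and Nedd4l (22.6 TPM) were abundant. Scnn1b (6.96 TPM) and Scnn1a (3.88 TPM) were intermediate. Slc26a4 (0.38 TPM), Cftr (0.36 TPM) and Scnn1g (0.33 TPM) were below 1 TPM in nearly every mouse. By mean TPM Ano1 ranked 2697 and Scnn1g 18641 among the 30695 genes above 0 in any library. Within a mouse, Scnn1b was 3.88 to 55.7 times the level of Cftr and Ano1 59.9 to 401 times.

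**Figure D1:**
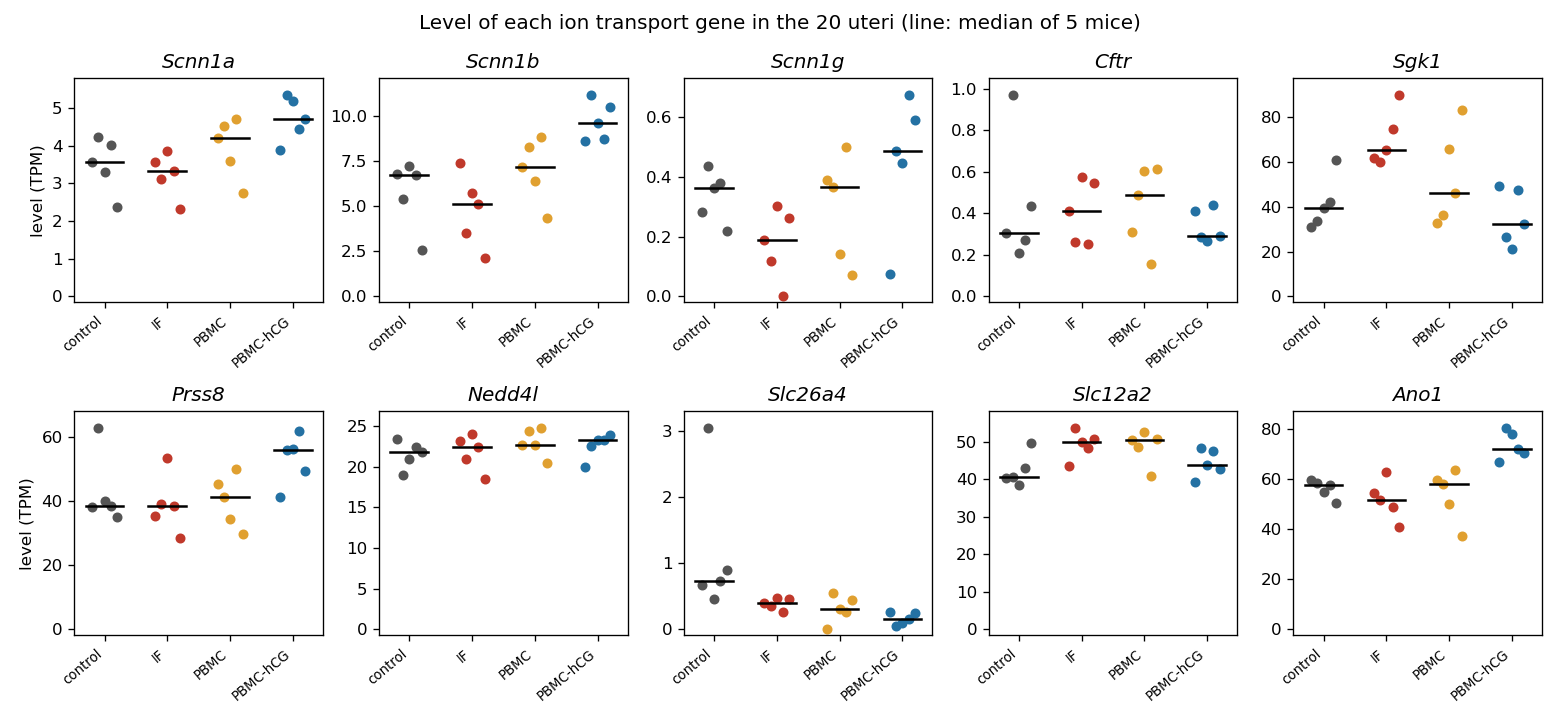
TPM of the 10 genes by mouse (points, 5 mice per group) with the group median (line), each panel on its own axis starting at 0. The 5 PBMC-hCG mice lie above all IF mice for Scnn1a, Scnn1b and Ano1 and below all IF mice for Sgk1 and Slc26a4.

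Upstream sequences are shown ahead of the values, because steroid receptors are the known regulators of several members. They are shown for Scnn1b and Sgk1, the ENaC subunit and the regulator with the largest fold changes between PBMC-hCG and IF mice. RefSeq promoter windows (GRCm38.p6, the 250 bases upstream of each listed start) were used for 6 of the 10 genes, namely Scnn1b, Scnn1g, Cftr, Sgk1, Slc26a4 and Ano1, with 6 starts for Sgk1. Scnn1a and Prss8 had none, and windows of Nedd4l and Slc12a2 are not reported here. Both strands were searched for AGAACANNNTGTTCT, the palindrome bound by the glucocorticoid and progesterone receptors, for its arm TGTTCT, for the estrogen receptor palindrome GGTCANNNTGACC and for its arm GGTCA. The arms are counted also where they lie within a palindrome. The 2 sequences below run 5' to 3' on the strand of the gene and end at the base before the start, with matches in capitals. Of the 6 windows of Sgk1, the 1 with a palindrome is printed.
Scnn1b: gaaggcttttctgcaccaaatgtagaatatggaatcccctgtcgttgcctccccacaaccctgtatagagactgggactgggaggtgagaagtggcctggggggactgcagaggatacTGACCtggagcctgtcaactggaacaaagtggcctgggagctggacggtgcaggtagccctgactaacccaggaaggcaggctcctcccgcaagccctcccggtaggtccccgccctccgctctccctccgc
Sgk1: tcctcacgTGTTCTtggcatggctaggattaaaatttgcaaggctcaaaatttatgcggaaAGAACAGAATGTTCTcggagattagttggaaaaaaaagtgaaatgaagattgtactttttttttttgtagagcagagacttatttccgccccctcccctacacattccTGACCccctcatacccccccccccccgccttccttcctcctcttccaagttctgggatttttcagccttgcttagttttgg

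The printed Sgk1 window is chr10:21993640-21993889 on the plus strand. It lies within the Sgk1 gene and overlaps no exon, being intronic to transcripts that start further upstream. It held the palindrome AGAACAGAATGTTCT, 189 to 175 bases before the start, a further TGTTCT and 1 estrogen receptor arm. The other 5 Sgk1 windows held no palindrome. That palindrome was present in 3 of 32851 promoter windows (0.00913%), whereas the arm TGTTCT alone was present in 16.1% of them. The Scnn1b window, chr7:121864788-121865037 on the plus strand, lies outside annotated genes and held 1 estrogen receptor arm, which 35.2% of windows held. The Slc26a4 window, which overlaps the first bases of that gene as RefSeq spans it, held 1 TGTTCT. The Ano1 window, which lies within the Ano1 gene and overlaps an exon of it, held 2 estrogen receptor arms. The Scnn1g window, which overlaps the first bases of that gene as RefSeq spans it, held 1. The Cftr window held no match. The estrogen receptor palindrome was in none of the members' windows that were used and in 0.0639% of all windows. These are matches of letters and not measured binding.

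The first comparison asked what RU486 alone had done, IF against control. Sgk1 was the 1 member of 8 that passed, at an adjusted p-value under 0.05, where 21.9% of all 18706 tested genes passed and 13.4% passed as higher. Neither ENaC subunit that was tested passed, nor did Cftr, Ano1, Prss8 or Nedd4l. The median log2 difference of the 8 members was -0.04, against 0.02 for all tested genes.

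Sgk1 (chromosome 10, 21882184 to 21999903) had 31.0, 33.9, 39.6, 42.0 and 60.9 TPM in the control mice. In the IF mice it had 61.7, 60.0, 65.6, 74.9 and 90.2 TPM. Thus 4 control mice lay below every IF mouse, and the groups overlapped only through control replicate 5. The log2 fold change was 0.79 ± 0.26 (SE, n = 5 and 5), a fold of 1.73, with an adjusted p-value of 0.038 in limma. The call was lost when control replicate 1, 2, 3 or 4 or IF replicate 3, 4 or 5 was left out, with adjusted p-values of 0.0537 to 0.0962 and log2 fold changes of 0.69 to 0.81. It was lost too without the filter on low values (0.0635), after quantile normalization (0.0537) and after median of ratios scaling (0.0574). The raw p-value stayed between 0.0025 and 0.0231 in all 20 fits with 1 mouse left out.

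Scnn1a (chromosome 6, 125314271 to 125344943) encodes the alpha subunit, without which the channel conducts little. It had 3.57, 4.23, 3.30, 4.01 and 2.37 TPM in control mice. It had 3.57, 3.12, 3.87, 3.32 and 2.33 TPM in IF mice. The groups overlapped almost completely, with a log2 difference of -0.10 (95% interval -0.47 to 0.27).

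Scnn1b (chromosome 7, 121865038 to 121918728), the beta subunit, had 6.78, 5.42, 7.24, 6.74 and 2.55 TPM in control mice. It had 7.37, 3.51, 5.75, 5.09 and 2.12 TPM in IF mice. Replicate 5 was the lowest mouse of both groups, and the log2 difference of -0.29 had a wide interval of -0.92 to 0.34. Scnn1g, the gamma subunit (chromosome 7, 121734420 to 121768482), had 0.281, 0.437, 0.361, 0.381 and 0.220 TPM in the control group, against 0.187, 0.117, 0.302, 0 and 0.261 TPM in the IF group. Its mean was lower in IF mice by 0.16 TPM (exact permutation test over 252 arrangements, 2-sided p = 0.0397, unadjusted), at levels where 1 library was listed at 0. Without control replicate 2 the exact permutation p-value was 0.0794. In limma without the filter on low values, over 30695 genes, the adjusted p-value of Scnn1g was 0.296.

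Cftr (chromosome 6, 18170687 to 18322770) had 0.305, 0.972, 0.210, 0.273 and 0.433 TPM in control mice. It had 0.411, 0.260, 0.573, 0.250 and 0.546 TPM in IF mice. The log2 difference was 0.01 with a wide interval of -0.66 to 0.69, wide enough to hold changes in either direction.

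Slc26a4 (chromosome 12, 31519814 to 31560055) had 0.673, 3.06, 0.453, 0.737 and 0.902 TPM in the control group. In the IF group it had 0.399, 0.355, 0.468, 0.271 and 0.456 TPM. The highest value by far was that of control replicate 2, the library with the high gland and adipose markers. The exact permutation p-value was 0.0238 with this mouse and 0.0476 without it, both unadjusted among 12 such tests, and in limma without the filter the adjusted p-value was 0.163. Slc12a2 averaged 42.5 ± 4.35 TPM in the control group against 49.3 ± 3.72 TPM in the IF group (SD, n = 5), a log2 difference of 0.22 with an adjusted p-value of 0.0641. Ano1 (log2 difference -0.13), Prss8 (-0.14) and Nedd4l (0.01) had intervals of -0.39 to 0.13, -0.51 to 0.24 and -0.15 to 0.18.

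Epithelial markers moved with this comparison. Of 10 epithelial marker genes 6 were higher and 1 lower in IF than in control mice (adjusted p-value under 0.05), and their sum was 797.9 to 1417 TPM in control and 1110 to 1442 TPM in IF mice. All 6 endothelial markers were higher, with sums of 366.4 to 492.1 TPM in control and 544.6 to 590.3 TPM in IF mice. Of 8 myometrial markers 2 were lower, of 8 stromal markers 2 were higher and 1 lower, of 7 gland markers 1 was higher and 1 lower, of 9 tested leukocyte markers 3 were higher, and of 5 oviduct markers 1 was lower. The part of these in the difference of Sgk1 was not tested.

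The second comparison asked whether PBMC cultured without hCG had changed the RU486-treated uterus, PBMC against IF. None of the 8 members passed in limma, where 0% of all genes passed, and none had an unadjusted p-value under 0.05, which 6.79% of genes had. Scnn1b came nearest, with 7.15, 8.27, 6.41, 8.80 and 4.34 TPM in PBMC mice, a log2 difference of 0.62 (95% interval -0.01 to 1.25). Sgk1 had 32.7, 36.3, 65.9, 46.2 and 83.4 TPM in PBMC mice, a log2 difference of -0.49 (95% interval -1.04 to 0.06). These PBMC mice were spread over the range of control and IF mice together, 3 below every IF mouse and 2 within their range. The intervals of Scnn1a (-0.09 to 0.64) and Cftr (-0.64 to 0.71) included 0.

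The third comparison, PBMC-hCG against IF, held most of the changes. Scnn1a, Scnn1b and Ano1 rose and Sgk1 fell, 4 of the 8 members, where 13.6% of all tested genes passed (7.61% higher and 5.99% lower). In all 4 genes the 5 PBMC-hCG mice did not overlap the 5 IF mice, as in 7.24% of all genes. By the study's criterion, at least a 2-fold change with an unadjusted p-value under 0.05, Scnn1b and Sgk1 passed, where 2.31% of genes did. The median log2 difference of the 8 members was 0.26, against 0.05 for all genes.

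Scnn1b had 8.62, 11.2, 9.62, 8.70 and 10.5 TPM in PBMC-hCG mice, against 2.12 to 7.37 TPM in IF mice. The means were 9.72 ± 1.12 and 4.77 ± 2.03 TPM (SD, n = 5). Every PBMC-hCG mouse was above every IF mouse and also above every control mouse (2.55 to 7.24 TPM). The log2 fold change against IF was 1.12 ± 0.30 (SE), a fold of 2.18, with an adjusted p-value of 0.0313 in limma.

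Scnn1a had 3.89, 5.36, 5.19, 4.44 and 4.70 TPM in PBMC-hCG mice, the lowest of which was just above the highest IF mouse (3.87 TPM). The log2 fold change was 0.54 ± 0.18 (SE), a fold of 1.45, with an adjusted p-value of 0.0484. Scnn1g had 0.0757, 0.486, 0.447, 0.675 and 0.590 TPM, of which 4 values were above every IF mouse and replicate 1 was below all but 1 of them. Its exact permutation p-value was 0.0556, and its adjusted p-value in limma without the filter was 0.168. The ratio of Scnn1b to Scnn1a within a mouse had a median of 2.09 (1.85 to 2.23) in PBMC-hCG mice and of 1.49 (0.909 to 2.06) in IF mice.

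Sgk1 had 49.2, 26.5, 21.0, 47.3 and 32.3 TPM in PBMC-hCG mice, all below the lowest IF mouse (60.0 TPM). The log2 fold change was -1.06 ± 0.26 (SE), a fold of 0.481, with an adjusted p-value of 0.0287. The kinase and the channel subunits thus moved in opposite directions. The ratio of Sgk1 to Scnn1b had a median of 3.08 (2.19 to 5.71) in PBMC-hCG mice and of 14.7 (8.37 to 42.7) in IF mice, without overlap, as follows from the values of the 2 genes.

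Ano1 (chromosome 7, 144588549 to 144752026) had 54.4, 51.6, 62.8, 48.9 and 40.6 TPM in IF mice. It had 66.7, 80.4, 77.9, 72.0 and 70.1 TPM in PBMC-hCG mice. The groups were separate, and the spread of the PBMC-hCG group (SD 5.64 TPM) was small beside the difference of the means, 73.4 and 51.7 TPM. The log2 fold change was 0.52 ± 0.12 (SE), a fold of 1.43, with an adjusted p-value of 0.0287.

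Slc26a4 had 0.269, 0.0566, 0.0935, 0.152 and 0.246 TPM in PBMC-hCG mice, all below the lowest IF mouse at 0.271 TPM. The exact permutation p-value was 0.00794, the smallest that 252 arrangements can give, unadjusted among 12 tests. In limma without the filter the adjusted p-value was 0.229. Cftr had 0.412, 0.284, 0.265, 0.438 and 0.289 TPM in PBMC-hCG mice, within the range of IF mice, with a log2 difference of -0.18 (95% interval -0.85 to 0.50).

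Prss8 (chromosome 7, 127925717 to 127930149) had 41.2, 56.0, 56.4, 61.8 and 49.5 TPM in PBMC-hCG mice. In IF mice it had 35.5, 39.2, 53.5, 38.6 and 28.4 TPM. Only IF replicate 3 reached into the PBMC-hCG range. The log2 difference of 0.46 ± 0.18 (SE) did not pass (adjusted p-value 0.0816), but did without control replicate 2 (0.0421), without IF replicate 3 (0.0239) or without PBMC-hCG replicate 1 (0.0423). Nedd4l lay between 18.5 and 24.8 TPM over all 20 mice and passed in no comparison. Its interval here was -0.11 to 0.22. Slc12a2 had a log2 difference of -0.15 (95% interval -0.32 to 0.02).

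Whether the 4 genes passed depended on which mice were in the fit. Without IF replicate 2, 4 or 5 or without PBMC-hCG replicate 2, 3, 4 or 5, none of the 4 genes passed, with adjusted p-values of 0.0536 to 0.156. In these 7 fits the number of genes called over the whole table fell from 2544 to between 0 and 34, whereas it rose to 5062 without IF replicate 3 and to 4161 without PBMC-hCG replicate 1. Scnn1a was also lost without control replicate 1, 3 or 4, IF replicate 1 or PBMC replicate 1, 2 or 3 (0.0522 to 0.0585), and after quantile normalization (0.0541). Without the filter on low values, Scnn1a (0.0762) and Scnn1b (0.0521) did not pass. The directions held in all 20 fits, with unadjusted p-values of at most 0.0241 for Scnn1a, 0.00522 for Scnn1b, 0.0032 for Sgk1 and 0.00195 for Ano1. The lowest log2 fold changes in size were 0.43 for Scnn1a, 0.87 for Scnn1b and 0.43 for Ano1, all without IF replicate 5, and -0.89 for Sgk1, without PBMC-hCG replicate 3.

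**Figure D2:**
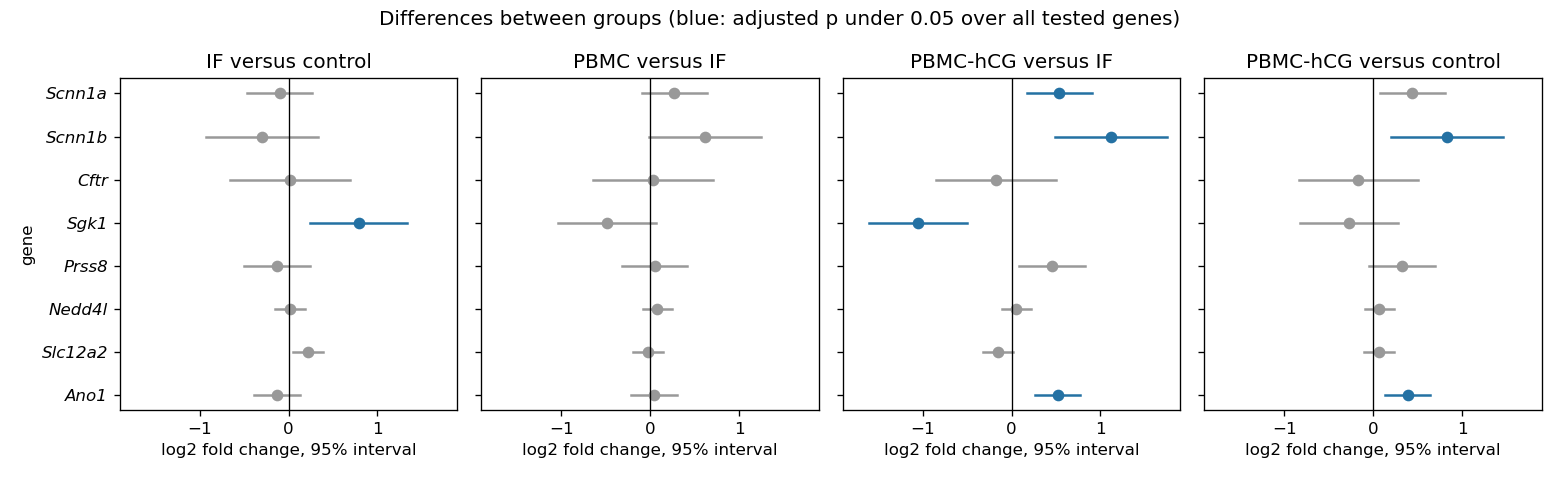
Log2 fold changes (x axis) of the 8 tested genes with 95% intervals in 4 comparisons, limma on log2(TPM + 0.1), 5 mice per group. Blue marks adjusted p-values under 0.05, which are Sgk1 in IF against control, Scnn1a, Scnn1b, Sgk1 and Ano1 in PBMC-hCG against IF, and Scnn1b and Ano1 in PBMC-hCG against control.

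Cell type markers were set beside the PBMC-hCG result. The 10 epithelial markers summed to 1216 to 1578 TPM in PBMC-hCG mice and 1110 to 1442 TPM in IF mice. The 1 that passed was Krt8, a keratin of simple epithelia, and the median log2 difference of the 10 was 0.25. Krt19 (0.76, adjusted p-value 0.05002 in limma, groups without overlap), Krt18 (0.42), Cldn3 (0.34), Esrp1 (0.27) and Cldn4 (0.24) were higher but did not pass. Elf3 (-0.42), Krt7 (-0.41), Epcam (-0.22) and Cdh1 (-0.04) had differences of the other sign and did not pass. Of 8 stromal markers 2 were higher (Pdgfra and Hoxa10), of 6 endothelial markers 1 was higher (Emcn), and 0 of 9 leukocyte and 0 of 5 oviduct markers passed in limma. None of the 7 gland or 8 myometrial markers passed, and the myometrial sum was 4874 to 6122 TPM against 6023 to 7510 TPM in IF mice. No epithelial or myometrial marker was at 0 in any library. The part of these in the differences of the ion transport genes was not tested.

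PBMC-hCG against PBMC compared mice given cells cultured with hCG and without it. Effects of hCG on the cells and on the uterus itself cannot be told apart here. No member passed, where 0.0107% of all genes (2 genes) passed. Ano1 was nevertheless separate between the groups, with 37.3 to 63.5 TPM in PBMC and 66.7 to 80.4 TPM in PBMC-hCG mice, as 3.46% of genes were. Its log2 difference was 0.47 (95% interval 0.22 to 0.73), with an adjusted p-value of 0.264. Sgk1 (-0.57), Prss8 (0.41) and Ano1 had unadjusted p-values under 0.05, 3 of 8 members where 16.2% of all genes had such a value. The intervals of Scnn1a (-0.10 to 0.63) and Scnn1b (-0.13 to 1.13) included 0, so that a difference between cells cultured with and without hCG was not shown for ENaC, nor was its absence.

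Set against control, the PBMC mice had no member that passed in limma, where 19.5% of genes passed. Slc12a2 (log2 difference 0.20, adjusted p-value 0.102) was the 1 member with an unadjusted p-value under 0.05, which 31.6% of genes had. Slc26a4 was lower in PBMC than in control mice by the exact permutation test (p = 0.0159, or 0.0317 without control replicate 2), with values of 0, 0.549, 0.311, 0.263 and 0.439 TPM. In PBMC-hCG against control, Scnn1b and Ano1 rose, 2 of the 8 members, where 31.8% of all genes passed and 20.2% passed as higher. Scnn1b had a log2 fold change of 0.83 ± 0.30 (SE) and an adjusted p-value of 0.0421. Its call was lost without control replicate 2 or 5, PBMC replicate 3 or PBMC-hCG replicate 2, 3, 4 or 5 (0.0505 to 0.132). It was also lost without the filter on low values (0.0688) and after median of ratios scaling (0.053).

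Ano1 had 59.3, 58.2, 54.7, 57.6 and 50.4 TPM in control mice, all below the PBMC-hCG mice. Its log2 fold change was 0.39 ± 0.12 (SE), with an adjusted p-value of 0.0216, lost without control replicate 5 (0.0574) or PBMC-hCG replicate 2 (0.0549) or 3 (0.0504). Both genes were without overlap between the groups, as were 18.3% of all genes. Of the markers, 6 of 8 myometrial ones were lower, and 6 of 10 epithelial ones were higher and 1 lower, in PBMC-hCG than in control mice. All 6 endothelial markers and 4 of 9 leukocyte markers were higher, of 8 stromal markers 3 were higher and 2 lower, of 7 gland markers 1 was higher and 1 lower, and of 5 oviduct markers 1 was lower. Their part in the differences was not tested. Sgk1, which had fallen against IF, had a log2 difference from control of -0.27 (95% interval -0.82 to 0.28). Slc26a4 was lower in every PBMC-hCG mouse than in every control mouse, with an exact permutation p-value of 0.00794 (0.0159 without control replicate 2), and a log2 fold change of -2.04 with an adjusted p-value of 0.0056 in limma without the filter.

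The order of the group means was PBMC-hCG, PBMC, control and IF for Scnn1a (4.72, 3.95, 3.50 and 3.24 TPM) and for Scnn1b (9.72, 6.99, 5.74 and 4.77 TPM). For Sgk1 it was IF, PBMC, control and PBMC-hCG (70.5, 52.9, 41.5 and 35.3 TPM). No 2 neighbours in either order differed by an adjusted p-value under 0.05. For Ano1 the order was PBMC-hCG, control, PBMC and IF (73.4, 56.0, 53.6 and 51.7 TPM), in which PBMC-hCG differed from its neighbour, control, and the other 3 groups did not differ from each other by the test.

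Mice of 1 group also varied among themselves in the same sense. Over the deviations of 20 mice from their group means, Scnn1a and Scnn1b had Pearson's r = 0.842 (Spearman's rho 0.69, and r = 0.739 without the 2 mice farthest from the median of Scnn1a). Scnn1a and Ano1 had r = 0.881 (rho 0.856, and 0.88 without 2 mice). Sgk1 ran against them, with r = -0.777 for Scnn1a (rho -0.692, and -0.657 without 2 mice). For Sgk1 and Scnn1b r was -0.592 (rho -0.447) and -0.398 without 2 mice, so that it rested in part on those mice. Replicate 5 of the control, IF and PBMC groups had the lowest Scnn1b and the highest Sgk1 of its group each time. These values are a description over libraries that share their processing and scaling, chosen from 45 pairs of members.

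**Figure D3:**
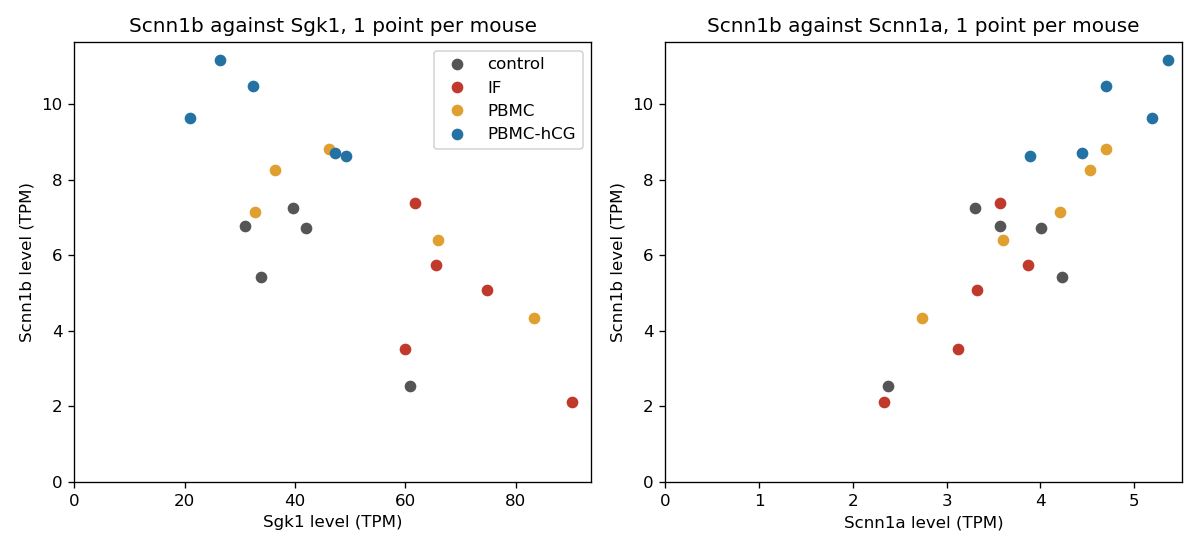
Scnn1b against Sgk1 (left) and against Scnn1a (right), in TPM, 1 point per mouse coloured by group (5 mice each). The PBMC-hCG mice lie at 8.62 to 11.2 TPM of Scnn1b and 21.0 to 49.2 TPM of Sgk1, and the IF mice at 2.12 to 7.37 TPM of Scnn1b and 60.0 to 90.2 TPM of Sgk1.

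Among 15771 genes with a mean of at least 1 TPM, the profile over the 20 mice most like that of Scnn1b was that of Magix (Pearson's r = 0.937), Aqp11 (0.933) and Cpxm2 (0.93). Those most like Scnn1a were Chchd5 (0.946), Zfp30 (0.943) and Mkrn2 (0.942). Cftr, at its low level, had weaker neighbours, Gjb1 (0.824), Upk3bl (0.779) and Pla2g12a (0.753). Scnn1g was not ranked because it was listed at 0 in 1 library. Such values, taken from the top of many candidates, describe these 20 libraries only.

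Genes that process, regulate or work beside the channels were counted in 5 lists. Over all tested genes, 21.9% passed in IF against control (13.4% higher) and 13.6% in PBMC-hCG against IF (7.61% higher, 5.99% lower), and each count is to be read against these shares. Of 16 proteases that cleave ENaC and inhibitors of such proteases, 14 were tested, and 7 were higher (13.4% of all genes) and 0 lower in IF than in control mice. In PBMC-hCG against IF mice 0 were higher and 5 lower (5.99% of all genes), and all 5 were among the 7 that had risen, namely Ctsb, Furin, Plau, Prss22 and Serpine2, the last an inhibitor. Comparisons of IF with control and of PBMC-hCG with IF share the IF mice, so opposite directions in them are not independent. The median log2 difference of the 14 was 0.54 and then -0.26, against 0.02 and 0.05 for all genes.

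Prss22 (tryptase epsilon) was at 2.46 ± 1.37 TPM in control, 11.8 ± 7.24 TPM in IF and 1.10 ± 0.76 TPM in PBMC-hCG mice (SD, n = 5). Its log2 fold changes were 2.29 (adjusted p-value 0.0151) and -3.23 (0.0258). Plau, the urokinase plasminogen activator, was at 24.6 ± 5.51, 68.3 ± 18.3 and 28.3 ± 6.12 TPM in the same order, with log2 fold changes of 1.46 (0.000109) and -1.25 (0.0218). IF mice overlapped neither the control nor the PBMC-hCG mice for Plau, but did overlap the PBMC mice (44.9 ± 16.5 TPM). For Prss22 they overlapped the control mice and the PBMC mice (6.33 ± 6.08 TPM) but not the PBMC-hCG mice.

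Of 18 hormone receptors, kinases and ligases that regulate ENaC, 17 were tested, and 4 were higher and 3 lower in IF than in control mice, where 21.9% of all genes passed. Pgr, the progesterone receptor, was at 45.9 ± 6.49 TPM in control mice, against 150 ± 16.2 TPM in IF mice, a log2 fold change of 1.71 (adjusted p-value 1.44e-07). Esr1, the estrogen receptor alpha, had a log2 fold change of 0.51 (5.98e-06). Tsc22d3 (GILZ), a glucocorticoid-induced gene whose product promotes ENaC at the membrane, fell from 126 ± 44.3 to 45.8 ± 14.4 TPM, a log2 fold change of -1.45 (0.000124). Stk39 (SPAK), a kinase that activates NKCC1, had a log2 fold change of -0.41 (0.00839). The direction of Tsc22d3 was thus opposite to that of Sgk1, although both are known as glucocorticoid-induced genes. In PBMC-hCG against IF mice 2 of 17 were higher and 0 lower, a share no larger than the 13.6% of all genes, Tsc22d3 by a log2 fold change of 0.77 (0.0363) and Nr3c1, the glucocorticoid receptor, by 0.39 (0.0258).

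Of 17 other chloride and bicarbonate transport genes, 14 were tested, and 1 was higher and 2 lower in IF than in control mice, 3 of 14, about the 21.9% of all genes. They were Slc4a2, an anion exchanger (0.24, adjusted p-value 0.0152), Slc4a4, a sodium bicarbonate cotransporter (-0.49, 0.00983), and Car2, a cytosolic carbonic anhydrase (-0.90, 0.0326). Car2 was at 106 ± 56.3 TPM in control and 51.2 ± 13.6 TPM in IF mice, with overlap. In PBMC-hCG against IF mice Slc4a2 (0.21, 0.0474) and Ano10 (0.27, 0.0483) were higher and Car12, a membrane carbonic anhydrase, was lower (-0.93, 0.0292).

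Of 16 sodium pump, sodium-proton exchange and potassium channel genes, 15 were tested, and 6 were higher and 3 lower in IF than in control mice, where 21.9% of all genes passed. Atp1b3, a beta subunit of the sodium pump, was at 256 ± 53.7 TPM in control and 462 ± 87.6 TPM in IF mice, a log2 fold change of 0.86 (adjusted p-value 0.00336). Kcnma1, the large-conductance potassium channel, had a log2 fold change of 0.90 (5.17e-05). Fxyd4 (CHIF), a pump regulator of tight epithelia, fell from 64.8 ± 35.2 to 18.5 ± 11.4 TPM (-1.76, 0.0028), and Kcne3, a potassium channel subunit, fell by 1.01 on the log2 scale (0.00161). In PBMC-hCG against IF mice 2 were higher and 2 lower, among them Fxyd4, which was higher (1.48, 0.0307), and Atp1b3, which was lower (-0.61, 0.0459).

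Of 9 aquaporins, which pass water, 6 were tested. Aqp1, found in vessels, was higher in IF than in control mice (0.55, adjusted p-value 0.00817), as were the endothelial markers. Aqp11 was at 8.49 ± 3.21 TPM in IF and 22.4 ± 5.79 TPM in PBMC-hCG mice, without overlap, a log2 fold change of 1.46 (0.0258). Aqp5 and Aqp8, with group means of 74.5 to 141 and 34.3 to 106 TPM, did not pass in either comparison. In PBMC against IF 0 genes of each list passed. In PBMC-hCG against IF, the calls of these lists had the same limit as those of the members, with 0 to 34 genes of the whole table passing in the 7 fits named for them and up to 5062 in the others.

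**Figure D4:**
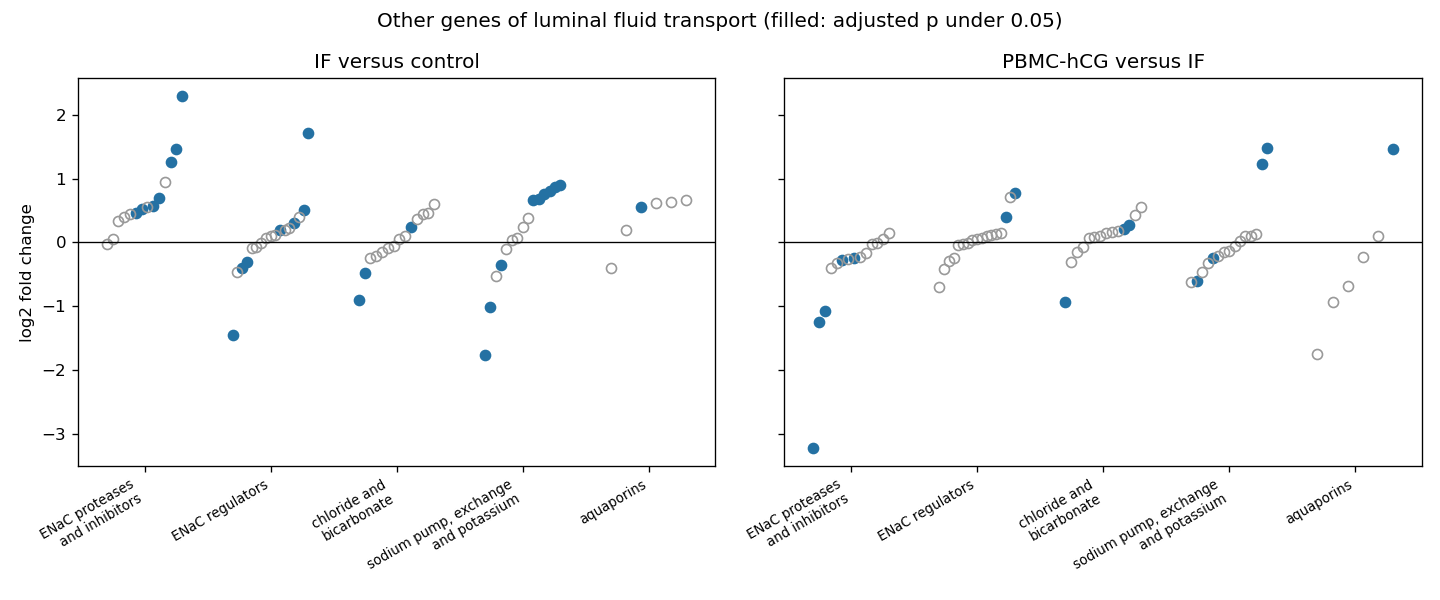
Log2 fold changes of the tested genes of 5 lists (points) in IF against control and in PBMC-hCG against IF, filled where the adjusted p-value was under 0.05. Of 14 proteases and inhibitors, 7 passed as higher in IF than in control mice and 5 passed as lower in PBMC-hCG than in IF mice.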

How the data were processed

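Polyadenylated RNA of 20 uteri was sequenced from stranded libraries. The authors trimmed reads with Trimmomatic, mapped them to mm10 with HISAT2 and assembled transcripts with StringTie (versions and annotation not given in the sources used here), and deposited TPM, 1 value per gene and library. Groups and replicate numbers came from the labels. TPM holds no read depth, so no counting error is given, and p-values measure the spread between 5 mice per group.

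Values were compared as log2(TPM + 0.1), which understates the changes of low genes. Genes with a TPM above 0 in each of the 20 libraries, 18706 in number, were fitted with limma 3.58.1 (R 4.3.3, variance trend, 4 groups in 1 fit), with Benjamini-Hochberg adjustment within each of 6 comparisons and a threshold of 0.05. The authors tested counts with edgeR, which TPM does not allow. Scnn1g and Slc26a4 were compared in TPM by 2-sided exact permutation tests with scipy 1.17.1. The method was tested on data simulated for IF against control, with noise drawn independently for each gene. Deviations that genes share within a mouse were not simulated. The members and lists were chosen with earlier results of these data known. From each list the text names the 2 largest rises and the 2 largest falls among genes that passed in IF against control and in PBMC-hCG against IF, and the likeness rule names 3 genes for a member. Some genes that this rule names are not reported here. Ctsb, Furin, Serpine2, Aqp5, Aqp8, Pdgfra, Hoxa10, Emcn and the epithelial markers of the PBMC-hCG against IF comparison were named after their values were seen. Gene positions are those of RefSeq on GRCm38, joined by NCBI gene identifier, and overlap with exons was read from the GENCODE annotation of GRCm38. Alternatives were pseudocounts of 0.01 and 1, other filters, scalings and fits, the replicate block, and each mouse left out in turn. Medium-injected mice, a further group of the study, had no library among the 20.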

Additional observations from a re-analysis of the deposited data

Results flagged for a closer look

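Control replicate 2 was set apart from the other 4 control mice in 2 members, in each of which the gap to its nearest neighbour was large beside the range of the group. Prss8 was at 63.0 TPM, where the others had 35.0 to 40.2 TPM (gap over range 0.816, critical value 0.71). Slc26a4 was at 3.06 TPM, where the others had 0.453 to 0.902 TPM (0.828). With 40 groups examined, chance alone marks about 1 in 20. The same library had the highest gland and adipose marker sums of the 20, whose part in these values was not tested. Without it, the log2 difference of Prss8 between PBMC-hCG and control mice was 0.47 with an adjusted p-value of 0.0285 in limma, against 0.32 and 0.178 with it.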

How the results depend on the processing

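Of the members that passed in IF against control, 1 became 0 without the filter on low values, after quantile normalization and after median of ratios scaling, and 0 to 2 with each mouse left out. In PBMC-hCG against IF, 4 became 2 without the filter (Scnn1a and Scnn1b were lost), Scnn1a was also lost after quantile normalization (adjusted p-value 0.0541), and the number was 0 to 5 with a mouse left out. In PBMC against control, 0 became 1 without the filter (Slc26a4, which enters only there) and 0 to 1 with a mouse left out. In PBMC-hCG against control, 2 became 1 after median of ratios scaling and 0 to 3 with a mouse left out. Over all genes, 4104, 2544, 3653 and 5941 of 18706 passed in these 4 comparisons in the main fit. The counts were 3844, 812, 3377 and 5554 of 30695 without the filter. They were 4206, 2648, 3532 and 5763 of 18706 after median of ratios scaling. After quantile normalization 4254 genes passed in IF against control and 2732 in PBMC-hCG against IF. Median of ratios scaling moved the share of higher genes among all calls from 61.1% to 50.5% in IF against control, from 55.9% to 44.6% in PBMC-hCG against IF, from 65.7% to 52.5% in PBMC against control and from 63.5% to 48.5% in PBMC-hCG against control. The cause was not tested.

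Directions turned only for differences near 0 that were not called. They were Cftr in IF against control (-0.01444 with a pseudocount of 1, -0.01389 with median of ratios), Nedd4l there (-0.02243 with quantile normalization, -0.01631 with median of ratios), Cftr in PBMC against IF (-0.03506) and PBMC against control (-0.01385) with quantile normalization, and Nedd4l (-0.007487) and Slc12a2 (-0.0135) in PBMC-hCG against control with median of ratios. With a mouse left out, ranges that crossed 0 were, in IF against control, Scnn1a -0.2281 to 0.01109, Cftr -0.1484 to 0.2992, Prss8 -0.256 to 0.01106 and Nedd4l -0.02984 to 0.07264, and in PBMC against IF, Cftr -0.09654 to 0.2691, Prss8 -0.05728 to 0.1704, Slc12a2 -0.06423 to 0.04028 and Ano1 -0.03858 to 0.1692. Further such ranges were Nedd4l -0.003474 to 0.09738 in PBMC-hCG against IF and -0.06779 to 0.01669 in PBMC-hCG against PBMC, Cftr -0.1173 to 0.3302, Prss8 -0.17 to 0.06066 and Ano1 -0.1515 to 0.03993 in PBMC against control, and Cftr -0.3272 to 0.1204 in PBMC-hCG against control. Of the other fold changes, 860 of the leave-out values and 409 of the values under other settings kept direction and call.

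Mice of the same replicate number did not as a rule deviate together (30 pairs, r of -0.247 to 0.457, median -0.0097, 8 above 0.1). The replicate 5 mice of control, IF and PBMC did (r of 0.272 to 0.457). Of 20 libraries, 2 correlated best with their own number, and the main fit did not pair the mice by number. Whether some numbers shared their handling was not tested. With the replicate number as a block, 4 members passed in PBMC-hCG against IF and 1 in IF against control. In PBMC-hCG against control 3 passed, where Scnn1a was added (adjusted p-value 0.027 in limma). Over all 18706 tested genes, 3215, 4153 and 6071 passed in the same order. Depth is unknown, so the precision of Cftr, Scnn1g and Slc26a4, all near 0.4 TPM, cannot be stated beyond the spread between mice.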
